A study of Rattus norvegicus with 6 samples.

Results

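AGTR1, which encodes the angiotensin II type 1 receptor, and further genes of the renin-angiotensin system were examined in RNA from isolated rat glomeruli. The members were set by symbol: AGTR1, ACE, AGT, ENPEP, MME and ATP6AP2, matched to the human symbols that the authors' tables pair with rat Ensembl IDs. This gave 6 rows of the 26319 in the count table, with AGTR1 on 2 of them (ENSRNOG00000010640 and ENSRNOG00000018346). AGT, the gene for angiotensinogen, had no row under its symbol and was not analysed here. All 6 rows passed the filter on low counts, which left 13426 genes.

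The study sequenced polyadenylated RNA from glomeruli of Sprague Dawley rats in 3 groups of 2, and its design text places the transgenic rats in an advanced cohort. The first group carried an AT1R transgene and received AC1903, a compound that blocks the TRPC5 channel, and its rats were 23.0 and 20.4 weeks old. The second carried the same transgene and received vehicle, at 20.4 and 17.4 weeks. The third was wild type (WT) and also received vehicle, at 20.4 and 21.9 weeks. The rat line is known for driving the receptor in podocytes from the nephrin promoter. The labels give neither the promoter nor the species of the transgene's receptor sequence, nor a dose or duration for AC1903. Ages differ within each group, so its 2 libraries came from different rats.

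The expected counts of a library summed to 12325515 and 12637582 for AT1R Tg AC1903, to 13464600 and 14230770 for AT1R Tg vehicle and to 25045081 and 36026772 for WT, so depth moved with genotype. Mitochondrially encoded genes took 22.3 to 40.5% of a library. A count of 0 would allow 0.0833 to 0.243 CPM of the total, for counting error only, and every member lay far above that.

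Angiotensinogen is cut to angiotensin I, and angiotensin-converting enzyme (ACE) turns that into angiotensin II, which acts on the type 1 receptor. In the glomerulus this receptor is found on mesangial cells and podocytes, and it is known for contracting mesangial and efferent arteriolar smooth muscle. Aminopeptidase A (ENPEP) and neprilysin (MME) shorten angiotensin peptides and lie on podocytes and on the proximal tubule brush border. The (pro)renin receptor, ATP6AP2, is also an accessory protein of the vacuolar proton pump.

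Rats have 2 type 1 receptor genes, Agtr1a and Agtr1b, and both carry Agtr1 as a synonym in RefSeq. The sources used here do not tie either Ensembl row to one of them. Of the 5 member symbols with a row, 5 were matched in RefSeq, to 6 rat genes. The bases just before the start of the 2 receptor genes are shown because the receptor's rows carried the clearest pattern among the members. The 120 bases lie on the minus strand of GRCr8, at chr17:34435433-34435552 for Agtr1a and at chr2:104849263-104849382 for Agtr1b. GRCr8 is not the build of the counts. Capitals mark the TATA box TATAAA, the CCAAT box CCAAT and the GC box GGGCGG on either strand.
Agtr1a: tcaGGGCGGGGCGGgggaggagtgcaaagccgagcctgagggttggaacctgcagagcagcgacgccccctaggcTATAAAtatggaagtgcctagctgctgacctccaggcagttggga
Agtr1b: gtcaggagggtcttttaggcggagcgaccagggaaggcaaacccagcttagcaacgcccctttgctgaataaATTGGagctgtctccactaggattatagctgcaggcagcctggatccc
In the full 250 bases before the start, Agtr1a held 1 TATA box and 2 GC boxes that overlap by 1 base, and no CCAAT box. Agtr1b held 2 CCAAT boxes, both on the reverse strand, and neither of the other motifs. Of 33469 rat promoters, 12.9% held the TATA box, 34.0% the CCAAT box and 30.5% the GC box on either strand. These matches describe letters in a window and show no binding.

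Levels are given as CPM, the counts of a gene relative to those of its library after TMM scaling (trimmed mean of M values). They are not divided by gene length, so they are compared between libraries and not between genes. AGTR1 at ENSRNOG00000010640 stood at 59.2 and 65.3 CPM in AT1R Tg AC1903, at 99.3 and 95.5 CPM in AT1R Tg vehicle and at 98.2 and 151 CPM in WT. At ENSRNOG00000018346 the receptor stood at 56.1 and 70.6 CPM in AT1R Tg AC1903, at 87.8 and 89.9 CPM in AT1R Tg vehicle and at 85.3 and 112 CPM in WT. On both rows the 2 AC1903 libraries lay below all 4 others, while vehicle and WT overlapped. Of all genes tested, AC1903 lay below both vehicle libraries in 18.4% and below both WT libraries in 23.5%. The share that lay below all 4 was not counted. WT replicate 2 was the highest library on both rows.

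**Figure D1:**
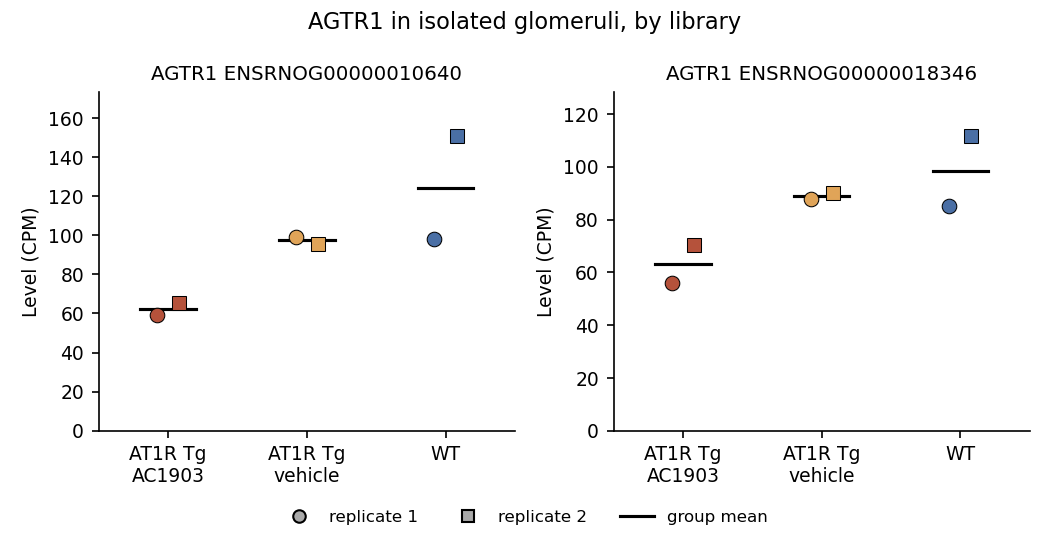
Level of the 2 AGTR1 rows in CPM (vertical axes, from 0) in AT1R Tg AC1903, AT1R Tg vehicle and WT glomeruli. Circles are replicate 1, squares replicate 2 and lines group means. Both AC1903 libraries lie under every other library on each row.

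Between AT1R Tg AC1903 and AT1R Tg vehicle, ENSRNOG00000010640 averaged 62.3 ± 4.30 and 97.4 ± 2.70 CPM (SD, n = 2 each), a 0.639-fold level. Its log2 change was -0.65 with SE 0.21 and a 95% interval of -1.13 to -0.16, and it missed the threshold in edgeR's quasi-likelihood test (adjusted p = 0.562). ENSRNOG00000018346 averaged 63.3 ± 10.3 and 88.8 ± 1.55 CPM, with a log2 change of -0.49, SE 0.19 and an interval of -0.92 to -0.05 (edgeR adjusted p = 0.602). Both rows were among the 8.12% of genes with an unadjusted p under 0.05, at ranks 366 and 706. No gene of the 13426 passed an adjusted p of 0.05 in this comparison (0% called), while 1090 had an unadjusted p under 0.05, DESeq2 called 67 (0.499%), edgeR with no filter 0.657% and limma-voom 0. The groups did not overlap in 38.3% of all genes tested, and in 18.4% of all genes tested they did not overlap and AC1903 was lower. The authors' deposited table gave log2 changes of -0.65 and -0.49 for the same rows, with adjusted p = 0.367 and 0.814.

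Against WT the AC1903 group stood lower on both rows as well. ENSRNOG00000010640 averaged 62.3 ± 4.30 CPM in AT1R Tg AC1903 and 124 ± 37.1 CPM in WT, a 0.500-fold level with a 95% interval of 0.357 to 0.701. Its rank by p-value was 59, and it missed the threshold in edgeR (adjusted p = 0.308). DESeq2 did call it (adjusted p = 0.00753), along with 1.35% of all genes, and so did edgeR with no filter on low counts, along with 2.67%. ENSRNOG00000018346 averaged 63.3 ± 10.3 and 98.5 ± 18.6 CPM, with a log2 change of -0.64, SE 0.19 and an interval of -1.07 to -0.21 (edgeR adjusted p = 0.354, DESeq2 adjusted p = 0.146). EdgeR called 0.0372% of all genes here, and the groups did not overlap in 47.7%, with AC1903 lower in 23.5%. Without WT replicate 2, the highest library, the log2 changes were -0.66 and -0.43. This comparison shares the AC1903 libraries with the one against vehicle.

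In vehicle-treated transgenic rats neither AGTR1 row stood above WT. ENSRNOG00000010640 averaged 97.4 ± 2.70 CPM in AT1R Tg vehicle and 124 ± 37.1 CPM in WT, with a 95% interval for the fold of 0.561 to 1.09. For ENSRNOG00000018346 the means were 88.8 ± 1.55 and 98.5 ± 18.6 CPM, with an interval of 0.670 to 1.21. Neither passed in edgeR (adjusted p = 0.575 and 0.815), where 0.0745% of all genes were called. DESeq2 called 4.25% and edgeR with no filter 4.46%, without either AGTR1 row. Without WT replicate 2 the log2 changes were -0.01 and 0.06. Since the labels do not say whether transgene transcripts would be counted on these rows, the values do not check the genotype.

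Expected counts were whole numbers on both receptor rows in every library, except for 5560.01 at ENSRNOG00000010640 in WT replicate 2. The summed level of both rows was 115 and 136 CPM in AT1R Tg AC1903, 187 and 185 CPM in AT1R Tg vehicle and 184 and 262 CPM in WT. The group means ran from AC1903, the lowest, to WT, the highest, with vehicle and WT overlapping. Counted as 1 gene, the receptor had a log2 change of -0.57 with SE 0.20 between AC1903 and vehicle (edgeR adjusted p = 0.588). Between AC1903 and WT it was -0.83 with SE 0.20 (adjusted p = 0.309), and between vehicle and WT -0.26 with SE 0.20 (adjusted p = 0.68), both in edgeR.

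ENSRNOG00000018346 took 48.6% (exact 95% binomial interval 46.0 to 51.3%) and 51.9% (49.5 to 54.3%) of the receptor's counts in AT1R Tg AC1903. Its share was 46.9% (45.0 to 48.8%) and 48.5% (46.4 to 50.6%) in AT1R Tg vehicle and 46.5% (45.1 to 47.9%) and 42.6% (41.6 to 43.6%) in WT. These intervals cover counting error only. All transgenic libraries lay above both WT libraries, by 5.75 percentage points on average for AC1903 and 3.19 for vehicle, but the intervals of both vehicle libraries and of AC1903 replicate 1 overlap that of WT replicate 1. The exact permutation p was 0.333 for each pair of groups, the smallest that 2 against 2 can give.

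ACE stood at 18.6 and 13.2 CPM in AT1R Tg AC1903, at 22.0 and 12.3 CPM in AT1R Tg vehicle and at 17.5 and 14.4 CPM in WT. Every group overlapped every other, and the group means were 15.9, 17.2 and 16.0 CPM. For vehicle against WT the 95% interval of the fold was 0.663 to 1.75 (edgeR adjusted p = 0.931). The adjusted p was 0.936 for AC1903 against vehicle and 0.997 for AC1903 against WT.

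ENPEP, whose product trims angiotensin II to angiotensin III, stood at 647 and 688 CPM in AT1R Tg AC1903, at 1195 and 602 CPM in AT1R Tg vehicle and at 966 and 910 CPM in WT. Both AC1903 libraries lay under both WT libraries, and the 2 vehicle libraries lay at either end of the whole range. The log2 change was -0.49 with SE 0.30 for AC1903 against WT (edgeR adjusted p = 0.57), -0.43 with SE 0.30 for AC1903 against vehicle (adjusted p = 0.696) and -0.06 with SE 0.30 for vehicle against WT (adjusted p = 0.96). The last was 0.35 without vehicle replicate 2 and -0.64 without vehicle replicate 1, and AC1903 against vehicle was 0.15 without vehicle replicate 1, so 1 library sets the direction of each.

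MME, which cleaves angiotensin I and natriuretic peptides among other substrates, stood at 50.6 and 80.1 CPM in AT1R Tg AC1903, at 77.6 and 40.5 CPM in AT1R Tg vehicle and at 37.2 and 38.3 CPM in WT. All 4 transgenic libraries lay above both WT libraries, which differed from each other by little. The means were 65.3 ± 20.9 CPM in AT1R Tg AC1903 and 37.8 ± 0.790 CPM in WT, a 1.73-fold level with a 95% interval of 1.05 to 2.85. This missed the threshold in edgeR (adjusted p = 0.422), and the log2 change was 0.79 with all libraries and 0.41 without AC1903 replicate 2. In vehicle the mean was 59.1 ± 26.2 CPM, a 1.57-fold level relative to WT with an interval of 0.953 to 2.57 (edgeR adjusted p = 0.479), and the log2 change was 0.65 with both vehicle libraries and 0.10 without vehicle replicate 1. Between AC1903 and vehicle the log2 change was 0.14 with SE 0.31 (adjusted p = 0.915), and it was -0.26 without vehicle replicate 2 and -0.25 without AC1903 replicate 2. The vehicle and WT groups did not overlap in 44.0% of all genes tested.

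ATP6AP2 varied least among the members, with a root mean square deviation of 0.118 log2 units over the 6 libraries. It stood at 110 and 122 CPM in AT1R Tg AC1903, at 136 and 132 CPM in AT1R Tg vehicle and at 122 and 109 CPM in WT. The vehicle libraries were the highest and overlapped neither of the other groups. The log2 change was 0.21 with SE 0.15 for vehicle against WT (edgeR adjusted p = 0.654), -0.20 with SE 0.15 for AC1903 against vehicle (adjusted p = 0.713) and 0.01 with SE 0.15 for AC1903 against WT (adjusted p = 0.989).

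Over the 6 member rows, the AC1903 libraries lay below both vehicle libraries in 3 (18.4% of all genes) and above them in 0 (19.9%). They lay below both WT libraries in 3 (23.5% of all genes) and above them in 1 (24.2%). Of the 3 lower rows in each case 2 were the AGTR1 rows, so 1 receptor symbol was counted as 2 rows. The vehicle libraries lay above both WT libraries in 2 (20.6% of all genes) and below them in 0 (23.4%). An unadjusted p under 0.05 in edgeR was reached by 2 rows for AC1903 against vehicle (8.12% of all genes), both of them AGTR1. It was reached by 3 for AC1903 against WT (11.1%), the AGTR1 rows and MME, and by 0 for vehicle against WT (11.9%). In the authors' deposited table no member row had an adjusted p under 0.05, while 0.378% of its genes did for AC1903 against vehicle and 4.42% for vehicle against WT.

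**Figure D2:**
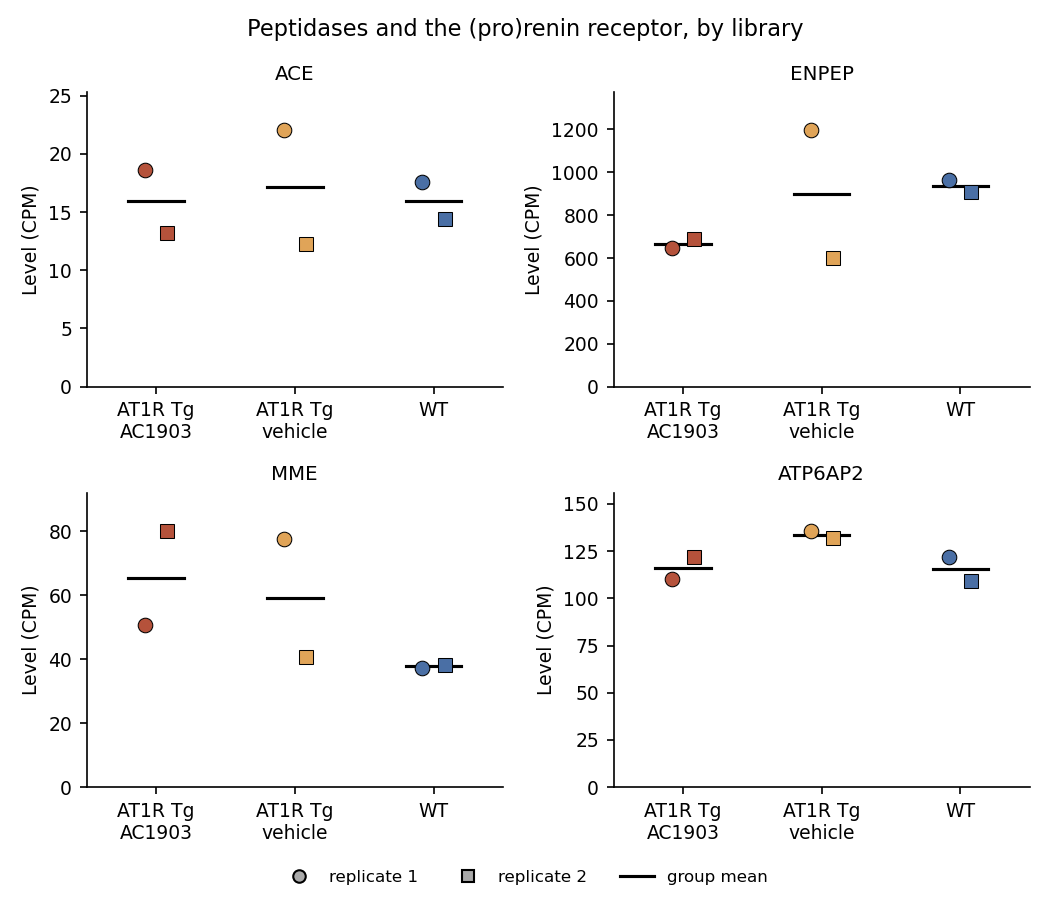
Level of ACE, ENPEP, MME and ATP6AP2 in CPM (vertical axes, from 0) by group and library, with circles for replicate 1, squares for replicate 2 and lines for group means. The vehicle libraries are far apart for ENPEP, MME and ACE and close together for ATP6AP2.

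**Figure D3:**
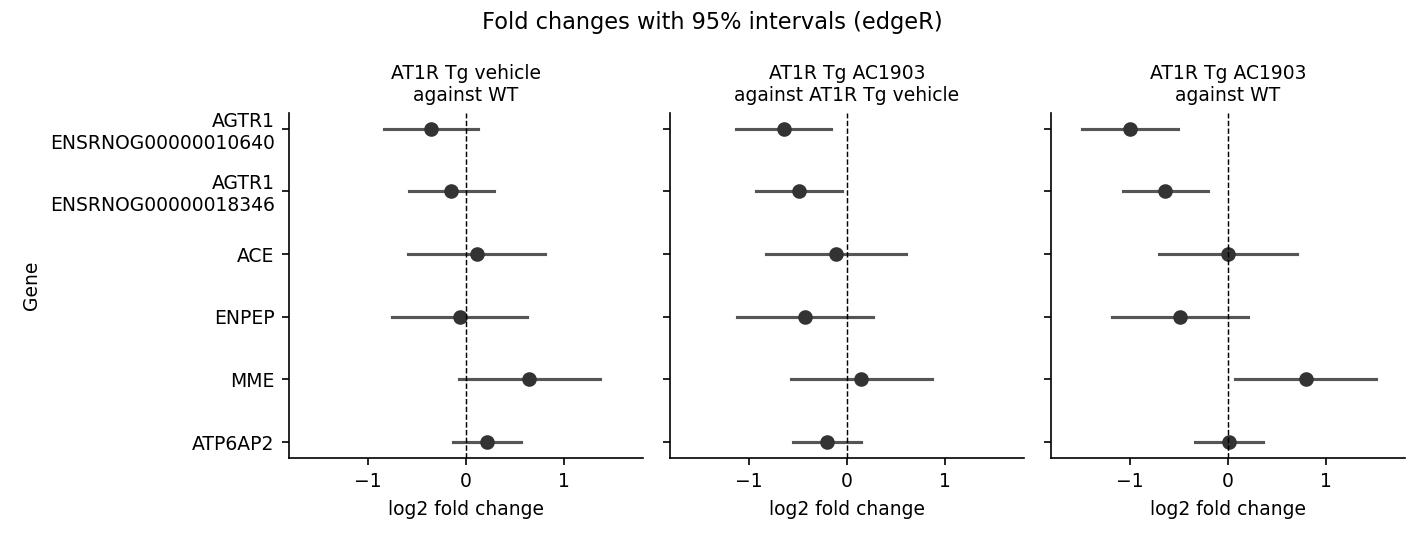
Log2 fold change (horizontal axes) of each member row in the 3 comparisons, with 95% intervals from edgeR as lines. The AGTR1 intervals lie under 0 in both comparisons that involve AC1903, and the MME interval lies above 0 for AC1903 against WT. None of these passed after adjustment over all genes.

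The summed levels of cell type markers differed between libraries, and in bulk RNA fewer cells of a type and less RNA per cell cannot be told apart. The summed level of 14 podocyte markers was 11706 and 15137 CPM in AT1R Tg AC1903, 18969 and 10172 CPM in AT1R Tg vehicle and 17611 and 15127 CPM in WT. None of the 14 was at 0 in any library, and PODXL, a sialoprotein of the podocyte surface, stood between 2967 and 4864 CPM, as the glomerular label implies. Proximal tubule markers, 17 in number and none at 0, summed to 6639 and 6535 CPM in AT1R Tg AC1903, to 6318 and 12326 CPM in AT1R Tg vehicle and to 4372 and 2661 CPM in WT. Their median log2 change was -0.40 for AC1903 against vehicle and 1.34 for vehicle against WT, where all 17 were positive.

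Within the vehicle group, ENPEP, MME and ACE were all higher in replicate 1, as were the podocyte markers, while the proximal tubule markers were higher in replicate 2. With proximal tubule markers in the model, ENPEP had a log2 change of 0.63 for vehicle against WT and 0.04 for AC1903 against WT, where the values without them were -0.06 and -0.49. MME then had 1.42 for vehicle against WT and 1.38 for AC1903 against WT, where it had been 0.65 and 0.79, and neither passed in edgeR (adjusted p = 0.9993 and 0.9997). The proximal tubule markers were higher in every transgenic library than in WT, so a model that holds them cannot separate them from genotype. The part of either cell type in the ENPEP, MME and ACE levels was not tested further.

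Summed by library, mesangial and smooth muscle markers, 9 in number and none at 0, ran like podocyte markers in AGTR1's order of group means. They summed to 609 and 656 CPM in AT1R Tg AC1903, to 825 and 670 CPM in AT1R Tg vehicle and to 858 and 950 CPM in WT, so the AC1903 libraries were again below all others. Their median log2 change between AC1903 and vehicle was -0.20, with 8 of 9 negative, and between AC1903 and WT -0.36, with 7 of 9 negative. Over all genes tested the medians were -0.02 and 0.00, with 52.1% and 49.8% negative. AC1903 lay below vehicle without overlap in 1 of the 9 (18.4% of all genes) and below WT in 6 (23.5%). That 1 was DES, the intermediate filament desmin, at 88.3 and 74.3 CPM in AT1R Tg AC1903, 118 and 111 CPM in AT1R Tg vehicle and 168 and 231 CPM in WT (edgeR adjusted p = 0.096 for AC1903 against WT). Between AC1903 and vehicle, ITGA8 (289 and 304 against 321.5 and 295 CPM) and PDGFRB (123 and 166 against 182 and 149 CPM) overlapped. Macrophage markers, 12 in number and none at 0 in any library, summed to 375 and 896 CPM in AT1R Tg AC1903, 236 and 307 CPM in AT1R Tg vehicle and 256 and 431 CPM in WT. The podocyte sums overlapped between AC1903 and vehicle. Of the 14 podocyte markers 11 were negative for AC1903 against WT (49.8% of all genes), at a median log2 change of -0.19. Of these 14, 7 lay below WT without overlap (23.5% of all genes). For AC1903 against vehicle 7 of the 14 were negative (52.1% of all genes), at a median of 0.02, and 0 lay apart without overlap. The part of any of these cells in the AGTR1 levels was not tested. With proximal tubule markers in the model the 2 AGTR1 rows had log2 changes of -0.80 and -0.57 between AC1903 and vehicle, where they had been -0.65 and -0.49. Between AC1903 and WT they were -0.59 and -0.43, where the log2 changes without the markers were -0.999 and -0.637. Between vehicle and WT they were 0.21 and 0.15, where they had been -0.35 and -0.15, and neither passed in edgeR (adjusted p = 0.9993 for each). The proximal tubule markers were higher in every transgenic library than in WT, so this model cannot separate them from genotype.

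**Figure D4:**
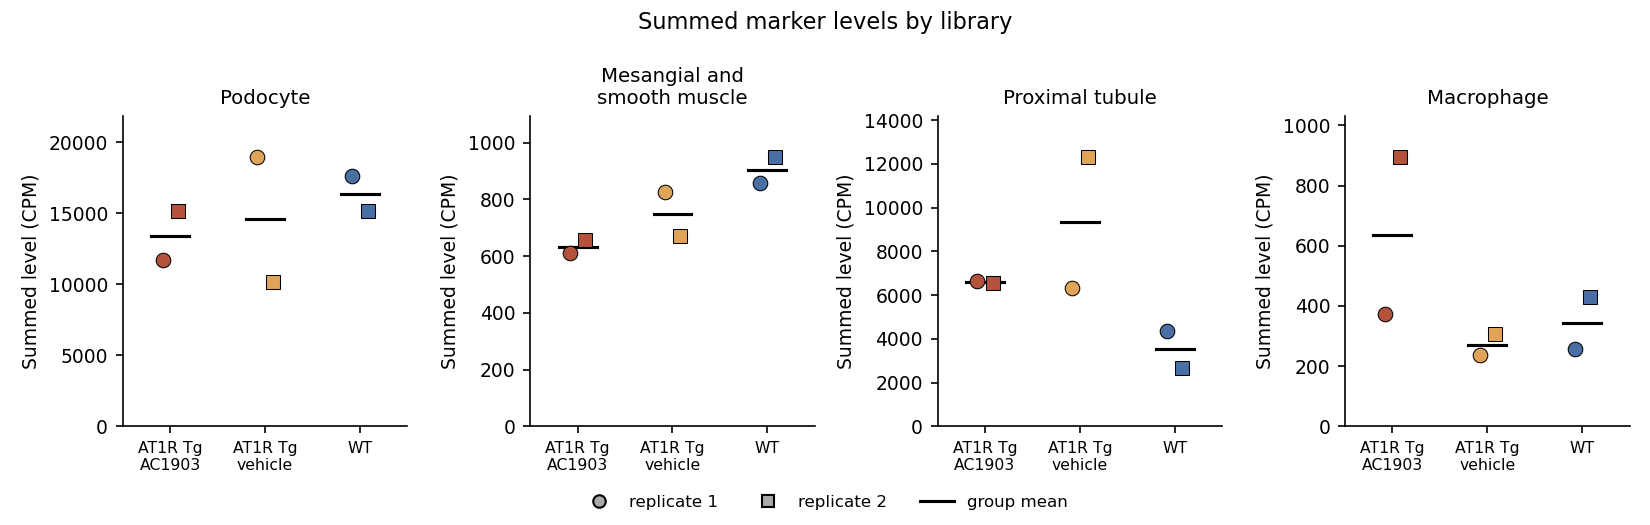
Summed level in CPM (vertical axes, from 0) of podocyte, mesangial with smooth muscle, proximal tubule and macrophage markers, by group and library. Circles are replicate 1, squares replicate 2 and lines group means. The AC1903 libraries are lowest in the mesangial panel and vehicle replicate 2 is highest in the proximal tubule panel.

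The wider system was described from a list of 23 symbols of renin-angiotensin peptides, enzymes and receptors, of which 13 had a row. Beside the members this gave 8 rows, and none was called by edgeR in any comparison. For AC1903 against vehicle 5 of the 8 lay below 0 and 3 above, where 52.1% and 47.9% of all genes did, and the median log2 change was -0.27 (-0.02 over all genes). For vehicle against WT 6 lay above 0 and 2 below, where 46.6% and 53.4% did, with a median of 0.19 (-0.03 over all genes). For AC1903 against WT 4 lay above 0 and 4 below, where 50.2% and 49.8% did, with a median of -0.01 (0.00 over all genes). The groups did not overlap in 5, 2 and 5 of the 8 in these comparisons, beside 38.3%, 44.0% and 47.7% of all genes.

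ANPEP, aminopeptidase N, which degrades angiotensin III and is abundant on the proximal tubule brush border, stood at 46.1 and 47.2 CPM in AT1R Tg AC1903, at 39.9 and 98.1 CPM in AT1R Tg vehicle and at 33.2 and 23.2 CPM in WT. Its log2 change for vehicle against WT was 1.29 with SE 0.37 (edgeR adjusted p = 0.204), and the library with the highest ANPEP was also the one with the highest proximal tubule markers.

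LNPEP, the insulin-regulated aminopeptidase that binds angiotensin IV, stood at 41.2 and 40.2 CPM in AT1R Tg AC1903, at 29.3 and 18.7 CPM in AT1R Tg vehicle and at 27.8 and 15.7 CPM in WT. It was the gene of the list whose AC1903 libraries lay furthest above the others, opposite to AGTR1. The log2 change was 0.76 with SE 0.30 against vehicle (edgeR adjusted p = 0.606) and 0.91 with SE 0.30 against WT (adjusted p = 0.385). The cytosolic peptidases THOP1 and DPP3 lay the other way between AC1903 and vehicle, with log2 changes of -0.54 and -0.45 (edgeR adjusted p = 0.612 and 0.607). DPP3, which degrades angiotensin II, stood at 45.3 and 52.8 CPM in AT1R Tg AC1903, at 57.5 and 76.3 CPM in AT1R Tg vehicle and at 54.0 and 59.8 CPM in WT. The carboxypeptidases CTSA and PRCP, the oligopeptidase NLN and the aminopeptidase RNPEP had log2 changes between -0.33 and 0.26 in the same comparison, and none passed.

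**Figure D5:**
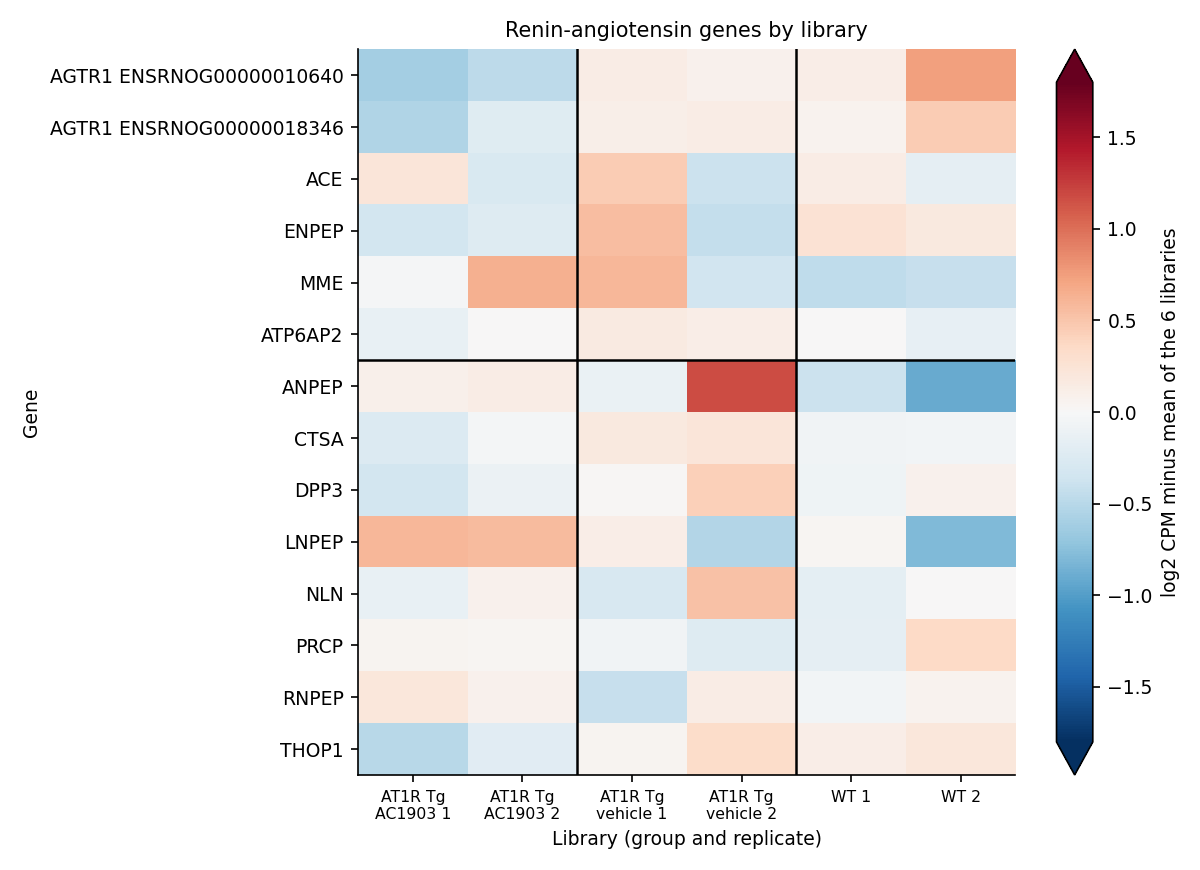
Log2 CPM of the 14 renin-angiotensin rows in each library, minus the mean of the 6 libraries (colour scale), with members above the line and the other genes of the list below it. The columns run from AT1R Tg AC1903 through AT1R Tg vehicle to WT. Both AGTR1 rows are lowest in AC1903 replicate 1, and LNPEP is highest in both AC1903 libraries.

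Genes that couple the type 1 receptor or switch it off were measured on 26 rows. None was called by edgeR in any comparison. The median log2 change was 0.06 for AC1903 against vehicle, 0.07 for AC1903 against WT and -0.14 for vehicle against WT. Over all genes the medians were -0.02, 0.00 and -0.03. For AC1903 against vehicle 16 of the 26 lay above 0, where 47.9% of all genes did. Without overlap AC1903 lay above vehicle in 8 and below it in 2, beside 19.9% and 18.4% of all genes. It lay above WT in 3 and below WT in 3, beside 24.2% and 23.5%. RGS2, a regulator that shortens Gq signalling, stood at 44.2 and 54.8 CPM in AT1R Tg AC1903, at 71.3 and 61.7 CPM in AT1R Tg vehicle and at 72.3 and 119 CPM in WT. Its AC1903 libraries were below all others, as for AGTR1 but unlike most of this list. The log2 change was -0.43 with SE 0.25 against vehicle and -0.96 with SE 0.25 against WT (edgeR adjusted p = 0.664 and 0.323). RGS4 had a log2 change of -0.70 with SE 0.26 for AC1903 against WT (edgeR adjusted p = 0.4). AGTRAP, which binds the receptor's tail and promotes its internalisation, stood at 36.1 and 31.9 CPM in AT1R Tg AC1903, at 36.4 and 64.3 CPM in AT1R Tg vehicle and at 45.4 and 35.4 CPM in WT. GNAI3, an inhibitory G protein subunit, stood at 436 and 301 CPM in AT1R Tg AC1903 and 255 and 243 CPM in AT1R Tg vehicle (log2 change 0.57 with SE 0.21, edgeR adjusted p = 0.602). In WT it stood at 269.5 and 304 CPM, which overlaps AC1903.

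The vacuolar proton pump, the other partner of ATP6AP2, was measured on 19 rows. Among them is a further ATP6V0C row at only 0.244 to 2.08 CPM. For vehicle against WT 15 lay above 0, where 46.6% of all genes did, at a median log2 change of 0.17 (-0.03 over all genes). In AC1903 against vehicle 14 lay below 0, where 52.1% did, at a median of -0.20 (-0.02 over all genes), which is close to the change of ATP6AP2 itself. In that comparison 0 of the 19 had an unadjusted p under 0.05 in edgeR, beside 8.12% of all genes. Without overlap 8 lay below vehicle and 0 above, beside 18.4% and 19.9% of all genes. For vehicle against WT 5 had an unadjusted p under 0.05 in edgeR, beside 11.9% of all genes. There 9 lay above WT without overlap and 2 below, beside 20.6% and 23.4% of all genes. No row passed in edgeR in any comparison. ATP6V0A4, the kidney isoform of the membrane subunit a, stood at 85.8 and 73.3 CPM in AT1R Tg AC1903, at 63.1 and 120 CPM in AT1R Tg vehicle and at 46.8 and 28.6 CPM in WT. Its log2 change was 1.28 with SE 0.33 for vehicle against WT (edgeR adjusted p = 0.189). ATP6V1B2, a subunit of the catalytic head, followed at 0.91 with SE 0.24 (adjusted p = 0.191, edgeR). Both were highest in vehicle replicate 2, the library with the highest proximal tubule markers, whose part in these values was not tested.

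Downstream of angiotensin II, 12 genes of the aldosterone response were measured and none passed in edgeR in any comparison. For AC1903 against vehicle 10 of 12 lay above 0, where 47.9% of all genes did, at a median log2 change of 0.41 (-0.02 over all genes). Without overlap, AC1903 was higher in 4 of the 12 and lower in 1, beside 19.9% and 18.4% of all genes. For AC1903 against WT 11 of 12 lay above 0, where 50.2% of all genes did, at a median of 0.37 (0.00 over all genes). There AC1903 was higher without overlap in 5 and lower in 0, beside 24.2% and 23.5% of all genes. The smallest p for AC1903 against vehicle was that of FKBP5, a chaperone gene that glucocorticoids also raise (log2 change 1.26 with SE 0.36, edgeR adjusted p = 0.549). FKBP5 stood at 215 and 161 CPM in AT1R Tg AC1903, at 101 and 55.6 CPM in AT1R Tg vehicle and at 92.6 and 49.0 CPM in WT. NR3C2, the mineralocorticoid receptor, stood at 8.65 and 8.87 CPM in AT1R Tg AC1903, at 4.18 and 10.2 CPM in AT1R Tg vehicle and at 8.29 and 6.59 CPM in WT, with all groups overlapping except AC1903 and WT.

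Kinin, natriuretic and endothelin peptides oppose or share angiotensin's vascular actions. Of 17 symbols for these peptides, their receptors and their peptidases, 10 had a row. KNG1, BDKRB1, BDKRB2, NPPA, NPPB, NPPC and CORIN had none, so the kinin precursor, the kinin receptors and the natriuretic peptides were not measured here. None of the 10 passed in edgeR in any comparison. EDNRB, the endothelin B receptor, stood at 938 and 636 CPM in AT1R Tg AC1903, at 470 and 460 CPM in AT1R Tg vehicle and at 575 and 505 CPM in WT. Its log2 change was 0.76 with SE 0.23 for AC1903 against vehicle (edgeR adjusted p = 0.549). NPR1, the receptor for atrial natriuretic peptide, stood at 162 and 161 CPM in AT1R Tg AC1903, at 154 and 158 CPM in AT1R Tg vehicle and at 216 and 246 CPM in WT. All transgenic libraries lay below both WT libraries, with log2 changes of -0.52 for AC1903 and -0.56 for vehicle, each with SE 0.15 (edgeR adjusted p = 0.354 and 0.195). Of all genes tested, AC1903 lay below both WT libraries in 23.5% and vehicle did in 23.4%. Glomerular endothelial markers, 12 in number and none at 0, summed to 9688 and 7515 CPM in AT1R Tg AC1903, to 6846 and 7369 CPM in AT1R Tg vehicle and to 9705 and 9745 CPM in WT. For AC1903 against vehicle 11 of 12 had a log2 change above 0, at a median of 0.25, for AC1903 against WT 4 did, at a median of -0.14, and for vehicle against WT 0 did, at a median of -0.37. Of all genes 47.9%, 50.2% and 46.6% lay above 0, at medians of -0.02, 0.00 and -0.03. Without overlap AC1903 lay above vehicle in 6 of the 12 (19.9% of all genes) and below WT in 3 (23.5%). Vehicle lay below WT in 11 (23.4%), and 0 went the other way in each comparison. The part of the endothelial markers in the EDNRB and NPR1 levels was not tested.

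The likeness of patterns was measured as the root mean square difference of log2 CPM over the 6 libraries, each gene centred on its own mean. It is a description over 12301 genes with a symbol. The 2 AGTR1 rows lay 0.164 apart, closer than any other pair of member rows, and MME lay 0.779 from ENSRNOG00000010640, the furthest pair. The genes nearest to ENSRNOG00000010640 were CHEK2, RGS7 and RGS2, at 0.110 to 0.117. Those nearest to ENSRNOG00000018346 were RPLP2, ZNF653 and PIGC, at 0.0643 to 0.0746. ENPEP was nearest to KLF5, CRYAB and RHPN1, MME to COL8A1, PAQR3 and GLRX, ACE to TMEM108, CDC14B and RITA1, and ATP6AP2 to HSDL2, TMEM41B and COPB2.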

How the data were processed

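Isolated-glomerulus RNA was sequenced from 6 libraries in 3 groups of 2, grouped by their titles. Expected counts per Ensembl gene were deposited by the authors. The submitters' processing notes name STAR 2.5.2b, RSEM 1.3.0 and Rnor_5.0. The log2 fold changes and adjusted p-values of 2 comparisons were deposited by the authors too, with a tool not given in the sources used here. Expected counts were rounded. Genes were filtered with filterByExpr, scaled by TMM and tested on all 6 libraries with edgeR 4.0.16 (quasi-likelihood, two-sided, 3 residual degrees of freedom, Benjamini-Hochberg over all genes, threshold 0.05). The code was tested on simulated data. DESeq2 1.42.0 and limma-voom (limma 3.58.1) were alternatives, beside other scalings, filters, covariates and omitted libraries. Log2 CPM used a prior count of 2.

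Replicates were no duplicates (chi-square per degree of freedom 19.0 to 92.8). Members and lists were chosen with earlier results of these data known. Named genes were all member rows, the other tested genes of the renin-angiotensin list, up to 4 genes of smallest p per further pathway list and comparison, the marker sums with leading markers, and the 3 nearest patterns per member. NR3C2 was named after its values were seen. One gene of the lists is not reported here and was left out of their counts and sums. Replicate numbers did not pair the libraries.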

Additional observations from a re-analysis of the deposited data

How the results depend on the processing

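No member passed the threshold under any of the 18 other settings, or with both AGTR1 rows summed (added after seeing the data), except in AC1903 against WT. There AGTR1 ENSRNOG00000010640 passed in DESeq2 (log2 change -0.99, adjusted p = 0.00753) and with no filter (-1.02, adjusted p = 0.00166), and MME passed with no filter (0.77, adjusted p = 0.0474). With no filter 17364 genes were tested, and edgeR called 774, 114 and 464 genes in vehicle against WT, AC1903 against vehicle and AC1903 against WT, where the main counts were 10, 0 and 5. DESeq2 called 560, 67 and 181. From the 2 groups alone 4 and 21 genes were called in vehicle against WT and AC1903 against WT, and with age as a covariate 4 in vehicle against WT and 1 in AC1903 against vehicle. With library totals only, 8 were called in AC1903 against WT. With 1 library left out the counts ran from 1 to 530 (without WT replicate 1, without vehicle replicate 1), from 0 to 4 and from 1 to 25. Each lone sample was then assumed to vary like the other groups.

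Both AGTR1 rows kept a negative log2 change in AC1903 against vehicle (-0.80 to -0.61 for ENSRNOG00000010640, -0.70 to -0.37 for ENSRNOG00000018346) and in AC1903 against WT (-1.28 to -0.59 and -0.82 to -0.43) under every alternative run, as did their sum. In vehicle against WT they turned positive with proximal tubule markers in the model (0.21 and 0.15), a level that differed with genotype. With 1 library left out ENSRNOG00000018346 ran from -0.334 to 0.056. The other changes of sign were these. With library totals only, which put the median of all genes at -0.19 in vehicle against WT and -0.12 in AC1903 against WT, ACE was -0.022 in the first and ATP6AP2 -0.12 in the second. ENPEP was 0.20 with age and 0.63 with the proximal tubule level in vehicle against WT, and 0.043 with the proximal tubule level in AC1903 against WT. MME was -0.038 with the proximal tubule level in AC1903 against vehicle. In AC1903 against WT, ATP6AP2 was -0.011 with no filter and -0.052 with the proximal tubule level. ACE there was 0.004 in DESeq2, 0.005 with DESeq2 size factors, 0.01 at 5 CPM in 2 libraries and 0.30 with the proximal tubule level. With 1 library left out, ACE ran from -0.38 to 0.47 in vehicle against WT, from -0.48 to 0.37 in AC1903 against vehicle and from -0.29 to 0.22 in AC1903 against WT. ENPEP ran from -0.64 to 0.35 and from -0.85 to 0.15 in the first 2 of these, MME from -0.26 to 0.69 in AC1903 against vehicle and ATP6AP2 from -0.075 to 0.086 in AC1903 against WT. The cause of these shifts was not tested.

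Same-numbered libraries did not deviate together (correlations of -0.041 to 0.005 across genes), and with the replicate number as a block 4, 2 and 7 genes were called and no member. With CPM of library totals, endothelial markers in WT summed to 10388 CPM and proximal tubule markers in AT1R Tg AC1903 to 6472 CPM, where TMM gave 9725 and 6587. Groups of 2 allow no test of single libraries, and no member change here had an adjusted p under 0.05 in edgeR with the filter.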
